A study of Danio rerio with 6 samples.

Results

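U5 is one of the small nuclear RNAs (snRNAs) of the spliceosome, and the zebrafish genome holds many copies of its gene. The copies described here are the rows of the snRNA count table that carry a U5 name and have at least 1 read in at least 1 of the 6 libraries. They number 16 of the 144 U5 rows, in a table of 1229 snRNA rows of which 171 had any read. The copies were thus chosen by their own counts, so their presence in the libraries is a description and no result. U5.43, with 1 read in all, is just inside this rule, and each of the 128 rows just outside it had 0 reads.

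The libraries were made from whole AB wild type zebrafish embryos at 5.5 hours post fertilization (50 percent epiboly). The 3 F1-γ libraries are offspring of adults, 6 months old at exposure, that received γ-radiation during gametogenesis at a rate of 8.7 mGy/h, adding up to 5.2 Gy. Mating took place 1 year after the exposure. The 3 F1-C libraries are offspring of control parents. Each library is a pool of 100 embryos, so it averages over embryos, and by the study's methods pools were taken from replicate sets of males and females within each group. The p-values measure the spread between these pools. One F1-γ library has both a 2 and a 3 in its title, and it is called replicate 3 here.

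U5 joins U4 and U6 in the tri-snRNP that enters the spliceosome, and a conserved loop of U5 holds the exon ends while they are joined. It carries a ring of Sm proteins and binds PRPF8, the large protein at the spliceosome's active centre. In an early embryo the U snRNAs come partly from the egg and partly from the embryo's own genes. The reads are from a small RNA library, so a count on a U5 row is the number of short sequenced pieces assigned to it and not the number of intact U5 molecules.

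The number of reads in the snRNA table differed between the groups, although the paper reports slightly more sequenced reads on average in F1-γ than in F1-C. It also reports that a smaller part of the reads mapped in F1-γ, and that fewer of them fell on snRNAs. The 3 F1-C libraries had 24212 to 30257 snRNA reads and the 3 F1-γ libraries had 5756 to 9138, a mean 3.87-fold lower, while the miRNA table of the same libraries had a mean of 990574 in F1-C and 1364463 in F1-γ. A level given as a part of the snRNA reads and one given per miRNA read can therefore point in opposite directions. In pooled embryos, fewer cells that make an RNA and less of it per cell cannot be told apart. The stage was checked with miR-430, the maternal-clearance miRNA of this stage, whose 3p arms made up 48.9% to 55.6% of miRNA counts, while 7 markers of later tissues, of which 5 had a row, summed to 0.0393% to 0.0714%.

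U5 reads came from 3 chromosomes, by GRCz10 coordinates, and chromosome 20 held most of them. The 6 libraries gave 4804 U5 reads, of which 91.1% lay on chromosome 20, 7.76% on chromosome 22 and 1.12% on chromosome 5. The order of the chromosomes by their number of U5 rows was different, since chromosome 5 has 134 rows, chromosome 20 has 7 and chromosomes 22, 7 and 9 have 1 each. The single rows on chromosome 7 (U5.10) and chromosome 9 (U5.7) and the row U5.11 on chromosome 20 had no read. A count of 0 over the 6 libraries allows a share of up to 0.00294% of the snRNA reads, taken as 3 reads of 101884. Limits and intervals of this kind cover counting error only, and not how reads that fit several copies were assigned. The same holds for the shares of the chromosomes.

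On chromosome 20, 6 copies had reads, all on the plus strand. U5.5 lies at chr20:16528207-16528322 and U5.3 at chr20:23333590-23333704. The other 4 stand close together, U5.2 at chr20:48779135-48779250, U5.6 at chr20:48779978-48780093, U5.1 at chr20:48781040-48781153 and U5.8 at chr20:48782104-48782219. Their starts are 843, 1062 and 1064 nt apart, and U5.11, which had no read, is on the minus strand at chr20:48775920-48776027. On chromosome 22, U5.9 lies at chr22:16251228-16251355 on the plus strand. With U5.9 these 7 copies held 98.9% of the U5 reads, and they are 114 to 128 nt long.

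U5.5 had 191, 243 and 204 reads in F1-C replicates 1 to 3 and 56, 23 and 11 reads in F1-γ replicates 1 to 3. U5.9 had 111, 131 and 111 reads in F1-C against 14, 6 and 0 in F1-γ. In both copies the groups did not overlap, and the F1-C libraries stood close together. U5.9 in F1-γ replicate 3 is below the limit of 3 reads, or 0.0521% of that library's snRNA reads. The group means of U5.5 differed 7.09-fold, 213 ± 27.1 in F1-C against 30 ± 23.3 in F1-γ (SD, n = 3). For U5.9 the means were 118 ± 11.5 and 6.67 ± 7.02, a 17.6-fold difference. Without F1-γ replicate 1 these ratios were 12.5 for U5.5 and 39.2 for U5.9.

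U5.3 had 131, 244 and 310 reads in F1-C against 190, 43 and 32 in F1-γ. For U5.2 the counts were 123, 218 and 296 in F1-C against 184, 51 and 47 in F1-γ. In these copies F1-γ replicate 1 had more reads than F1-C replicate 1, and the groups overlapped. The same holds for the next neighbours, with 99, 195 and 277 against 170, 40 and 34 reads for U5.6. U5.1 had 103, 201 and 275 against 173, 50 and 46 reads. U5.8 was the least counted of the cluster, with 14, 25 and 35 reads in F1-C against 24, 12 and 7 in F1-γ. The means in F1-C were 1.72-fold (U5.8) to 2.58-fold (U5.3) those in F1-γ, and without F1-γ replicate 1 they were 2.60-fold (U5.8) to 6.09-fold (U5.3). Among all 27 snRNA rows past the count minimum, 66.7% had counts that did not overlap between the groups, and of the 6 U5 copies among these rows that was so for 2, U5.5 and U5.9.

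**Figure D1:**
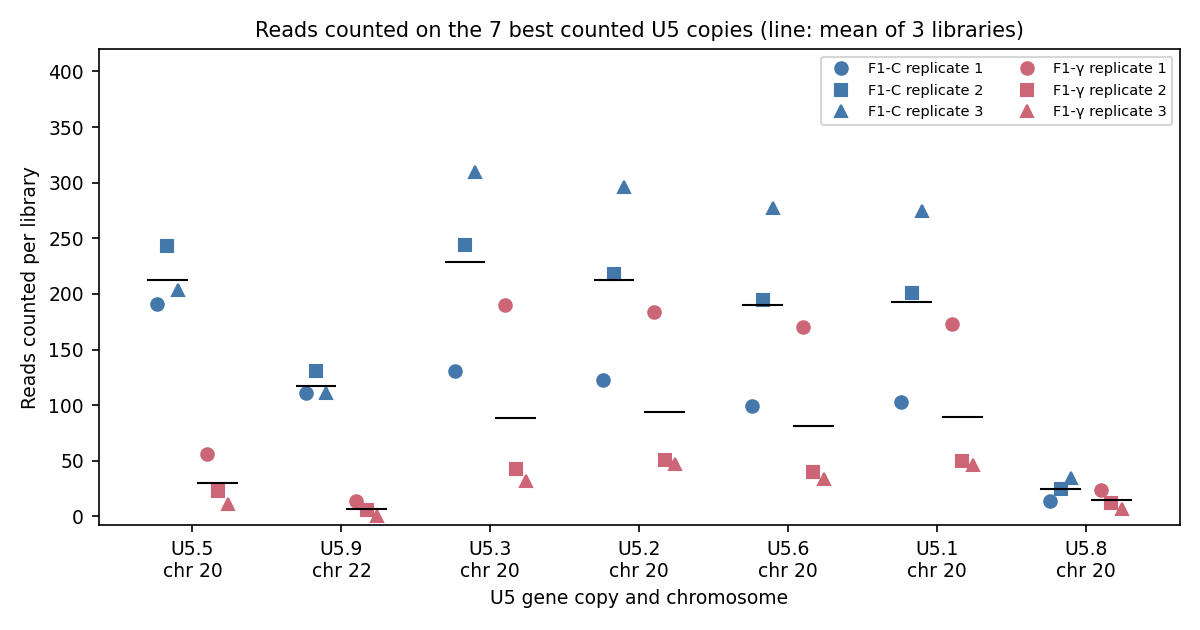
Reads counted per library (vertical axis) on the 7 best counted U5 copies (horizontal axis, with chromosome); points are single libraries, blue for F1-C and red for F1-γ, the marker shape gives the replicate, and a line marks the mean of 3 libraries. For U5.5 and U5.9 every F1-γ library sits under every F1-C library, while for the other 5 copies F1-γ replicate 1 sits above F1-C replicate 1.

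Per length, averaged over the 6 libraries, U5.3 had the highest level with 138 reads per 100 nt. It was followed by U5.2 with 132, U5.1 with 124, U5.6 with 117 and U5.5 with 105 reads per 100 nt, then U5.9 with 48.6 and U5.8 with 16.8. These averages use reads as counted, so the F1-C libraries, with more snRNA reads, weigh more in them. U5.3 was above U5.2 in 4 of 6 libraries, the 3 F1-C libraries and 1 F1-γ library. U5.6 was above U5.5 in 4 of 6, 1 F1-C library and the 3 F1-γ libraries. U5.9 was above U5.8 in the 3 F1-C libraries only. These neighbours thus changed places between libraries. U5.2 was above U5.1, and U5.1 above U5.6, in 6 of 6 libraries. U5.9 was below those 5 copies in every F1-γ library.

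U5.2, U5.6 and U5.1 had counts close to each other in every library. U5.2 exceeded U5.6 by 11 to 24 reads and U5.1 by 1 to 21 reads, and U5.6 and U5.1 differed by at most 12 reads. How reads that fit several copies were assigned is not given in the sources used here. U5.3, far from this cluster, was also close to U5.2, with 131 against 123 reads in F1-C replicate 1 and 32 against 47 in F1-γ replicate 3. Copies with nearly the same sequence can share reads. The values of U5.3, U5.2, U5.6 and U5.1 are thus uncertain as values of single genes.

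The U5 total per library was 775, 1267 and 1529 reads in F1-C against 824, 227 and 182 in F1-γ. The groups overlapped through F1-γ replicate 1, and the mean was 1190 ± 383 reads for F1-C and 411 ± 358 reads for F1-γ (SD, n = 3), a 2.90-fold difference that was not tested and was 5.82-fold without F1-γ replicate 1. As a part of all snRNA reads U5 took 3.20%, 4.19% and 5.77% in F1-C against 9.02%, 3.76% and 3.16% in F1-γ. F1-γ replicate 1 had the largest U5 share of the 6 libraries (exact 95% interval 8.44% to 9.62%), and the other F1-γ libraries lay inside the F1-C range or just under it. Per 1000000 miRNA counts the U5 total was 1099, 1152 and 1310 in F1-C against 563, 164 and 146 in F1-γ, so that on this scale the groups did not overlap. That scale gave means of 1187 ± 109 and 291 ± 236, 4.08-fold lower in F1-γ, or 7.66-fold without F1-γ replicate 1. This fall is not particular to U5. In counts, the mean of all snRNA reads was 3.87-fold lower in F1-γ, against 2.90-fold for U5. With library sizes from the miRNA counts, 100% of the 27 snRNA rows tested below were called lower.

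The effect of parental exposure on each copy was assessed from the counts by quasi-likelihood F-tests in edgeR, with trimmed-mean-of-M-values (TMM) factors computed within the snRNA table, and p-values were Benjamini-Hochberg adjusted over all 27 rows with more than 100 reads in at least 3 libraries. Rows with identical counts were each kept among the 27, and counting each such pattern once left 21 rows. A copy was called at an adjusted p below 0.05 and an absolute log2 fold change above 0.6. Of the U5 copies, 6 passed the count minimum, U5.5 and U5.9 through the F1-C libraries alone. On this scale no U5 copy of 6 was called, while 14.8% of the 27 rows were called lower and 22.2% higher in F1-γ. These calls differ from those of the paper, which lists U5.5 and U5.9, and no other U5 copy, as lower in F1-γ. The paper used the exact test of edgeR and a cutoff of more than 100 reads. With the quasi-likelihood test and no count minimum, where 17% of all rows were called, U5.5 (log2 fold change -1.71) and U5.9 (-3.01) were called lower. No other U5 copy was called in that setting, so its U5 calls are those the paper lists. The cause of the difference between the settings was not tested. At an unadjusted p below 0.05 there were 2 of 6 (U5.2 and U5.1), against 51.9% of the 27 rows. With the minimum of 100 reads, the exact test of edgeR called 3 of 6 copies, U5.2 and U5.1 higher and U5.9 lower, and 51.9% of all rows. DESeq2 called 4 of 6 copies, U5.2, U5.6 and U5.1 higher and U5.9 lower, and 59.3% of all rows. Neither called U5.5. The U5 counts were thus near or below those of the whole table.

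The log2 fold changes of the 6 copies, F1-γ against F1-C, ran in both directions. U5.1 had 1.47 (SE 0.51, adjusted p = 0.0669), U5.2 had 1.39 (SE 0.49, adjusted p = 0.0672), U5.6 had 1.29 (SE 0.58, adjusted p = 0.109) and U5.3 had 1.13 (SE 0.56, adjusted p = 0.132). U5.5 had -0.21 (SE 0.31, adjusted p = 0.584) and U5.9 had -1.52 (SE 0.61, adjusted p = 0.0914). The median over the 6 was 1.21, and over all 27 rows it was -0.02. In CPM on the TMM scale the groups did not overlap for U5.2 and U5.1 (higher in F1-γ) and for U5.9 (lower in F1-γ), 3 of 6 copies against 55.6% of the 27 rows.

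The calls also moved when single libraries were left out, for U5 and for the table as a whole. Without F1-γ replicate 1, 4 of 6 copies were called, U5.2 and U5.1 as higher and U5.5 and U5.9 as lower, against 66.7% of the 27 rows. Without F1-C replicate 3 (48.1% of the 27 rows called) or without F1-γ replicate 2 (51.9%), U5.2 and U5.1 were called higher. Without F1-γ replicate 3 (44.4%), U5.9 was called lower with an adjusted p of 0.00513 in edgeR. No copy was called without F1-C replicate 1 (37% of the 27 rows) or replicate 2 (40.7%). With no count minimum, where 171 rows enter the factors and the adjustment and 17% of them were called, U5.5 (log2 fold change -1.71, adjusted p = 0.000288) and U5.9 (-3.01, adjusted p = 8.2e-08) were called lower, and the other named copies lay between -0.26 and 0.44 and were not called.

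With library sizes taken from the miRNA table, all 6 copies were called lower in F1-γ, and so were 100% of the 27 rows, whose median log2 fold change was then -3.35. U5.9 had -4.67 (SE 0.68, adjusted p = 9.6e-10) and U5.5 had -3.37 (SE 0.55, adjusted p = 3.6e-08). Both had passed the count minimum through the F1-C libraries alone, so the minimum favoured a lower value in F1-γ. The other copies had smaller differences, with -1.85 for U5.3, -1.68 for U5.6, -1.64 for U5.2 and -1.56 for U5.1 (adjusted p at most 0.00338). The direction of U5.3, U5.6, U5.2 and U5.1 is thus higher with the TMM factors and lower with the miRNA library sizes. A change of library sizes shifts the rows nearly alike, so positions relative to the median row carry over from one scale to the other by construction. The log2 fold change less the median was -1.499 (TMM) and -1.32 (miRNA) for U5.9, -0.19 and -0.02 for U5.5, and 1.15 to 1.79 for the 4 others. Leaving out single libraries on the miRNA scale gave 4 to 6 lower calls among the U5 copies and 20 to 27 among the 27 rows. U5.6 and U5.1 missed the threshold without F1-C replicate 3 (adjusted p = 0.0521 and 0.052), where 74.1% of the rows were called, and U5.1 missed it without F1-γ replicate 2 (adjusted p = 0.052).

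**Figure D2:**
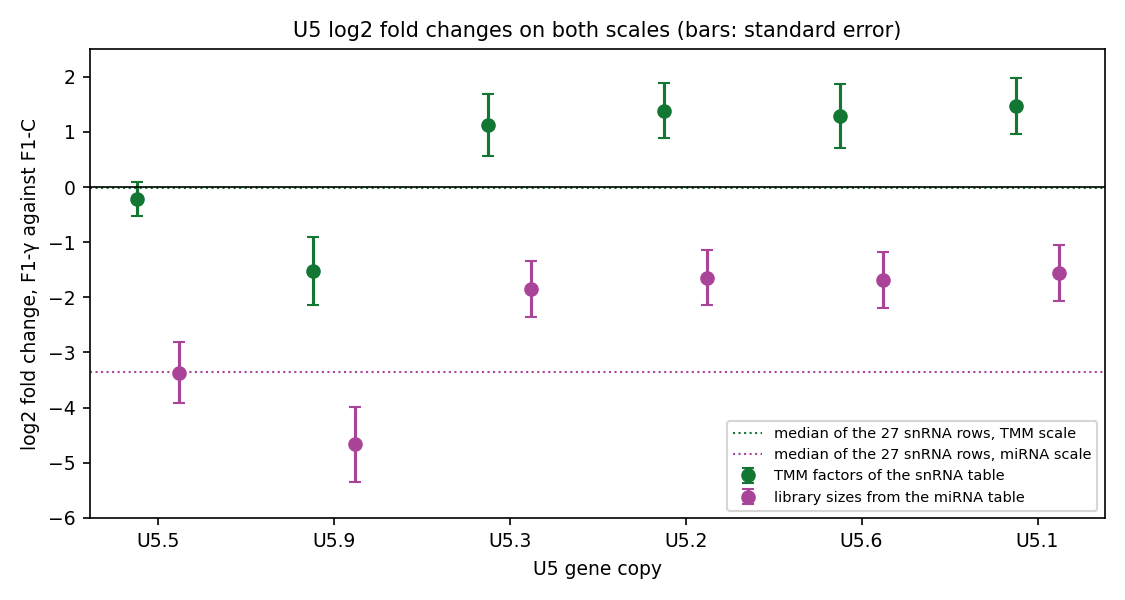
Log2 fold change, F1-γ against F1-C (vertical axis), of the 6 U5 copies past the count minimum (horizontal axis), from edgeR with TMM factors of the snRNA table (green) and with library sizes of the miRNA table (purple); bars are standard errors and dotted lines the median of the 27 snRNA rows on each scale. U5.3, U5.2, U5.6 and U5.1 sit above both medians, from 1.13 to 1.47 with the TMM factors and from -1.85 to -1.56 on the miRNA scale, and U5.9 sits under both.

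U5.8 is below the count minimum. With more than 10 reads in at least 3 libraries as the minimum, 43 rows were tested. With TMM factors its log2 fold change was 1.24 (SE 0.39, adjusted p = 0.0258 in edgeR, called higher), where 55.8% of the 43 rows were called in either direction. With miRNA library sizes it was -1.23 (SE 0.44, adjusted p = 0.00769 in edgeR, called lower), where 74.4% of the 43 rows were called lower. The second of these settings was added after the data were seen. Its direction followed that of its 3 neighbours on each scale.

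A ratio between copies within a library does not depend on the library size, but it does depend on how reads that fit both copies were assigned. It was tested for the highest counted copies, U5.3 and U5.2. The log2 ratio of U5.2 to U5.3 was -0.09, -0.16 and -0.07 in F1-C against -0.05, 0.24 and 0.55 in F1-γ. The F1-γ libraries lay above the F1-C libraries without overlap, with a mean of 0.25 ± 0.30 against -0.11 ± 0.05 (SD, n = 3), a difference of 0.35. The exact two-sided permutation test gave p = 0.10, the smallest p that 3 against 3 libraries can give. F1-γ replicate 1, at -0.05, stood close to F1-C replicate 3, at -0.07. The ratios of F1-γ replicates 2 and 3 rest on few reads, 51 of U5.2 against 43 of U5.3 and 47 against 32. The counting error of the ratio was not computed.

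Larger group differences in the log2 ratio to U5.3 were seen for U5.5 (-1.36) and U5.9 (-3.29), which were picked for this after their counts were seen and are described with no test. U5.5 had 1.46, 0.996 and 0.658 reads per U5.3 read in F1-C against 0.295, 0.535 and 0.344 in F1-γ. U5.9 had 0.847, 0.537 and 0.358 in F1-C against 0.0737, 0.14 and 0 in F1-γ. Both ratios were lower in every F1-γ library than in any F1-C library, and both also differed among the F1-C libraries, 2.22-fold for U5.5 and 2.37-fold for U5.9. The U5.1, U5.6 and U5.8 ratios to U5.3 lay higher in every F1-γ library. For U5.6 the groups almost touched, at 0.756 to 0.894 in F1-C and 0.895 to 1.06 in F1-γ. All these ratios share U5.3 as denominator, so their separations are not independent of each other. How often ratios of other snRNA rows separate the groups was not computed.

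The copies also varied differently among the F1-C libraries. In reads per 1000000 miRNA counts, U5.5 had 271, 221 and 175 and U5.9 had 157, 119 and 95.1 in F1-C replicates 1, 2 and 3. U5.3 had 186, 222 and 266 and U5.2 had 174, 198 and 254 in the same libraries. On this scale the library with the most U5.5 and U5.9 was the one with the least U5.3, U5.2, U5.6, U5.1 and U5.8. The order depends on the scale, since on the TMM scale F1-C replicate 3 had the most of all 6 fitted copies (6919 CPM of U5.5 and 10515 CPM of U5.3), and in raw counts F1-C replicate 2 had the most U5.5 and U5.9. On the TMM scale the coefficient of variation over the F1-C libraries was 9.56% for U5.5 and 7.53% for U5.9, against 48.8% to 57.2% for U5.3, U5.2, U5.6 and U5.1. On the miRNA scale the 7 copies ranged from 17.8% (U5.3) to 26.4% (U5.6). In raw counts the highest F1-C library was 1.27-fold the lowest for U5.5 and 1.18-fold for U5.9, against 2.37-fold to 2.80-fold for U5.3, U5.2, U5.6 and U5.1. The lower spread of U5.5 and U5.9 among the F1-C libraries was thus present in the counts and on the TMM scale and not on the miRNA scale. Over the F1-γ libraries the coefficient of variation on the TMM scale was 41.1% for U5.5 and 91.8% for U5.9. It was 42.0% to 63.9% there for U5.3, U5.2, U5.6 and U5.1. The TMM factors themselves were between 1.16 and 1.42 for the F1-C libraries and between 0.612 and 0.863 for the F1-γ libraries, and their part in these values was not tested.

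The share of chromosome 20 in the U5 reads was tested in the same way. It was 85.3% (exact 95% interval 82.6% to 87.7%), 88.9% (87.0% to 90.6%) and 91.4% (89.8% to 92.7%) in F1-C. In F1-γ it was 96.7% (95.3% to 97.8%), 96.5% (93.2% to 98.5%) and 97.3% (93.7% to 99.1%). The shares did not overlap between the groups, with means of 88.5% ± 3.05 and 96.8% ± 0.40 (SD, n = 3), a difference of 8.31 percentage points. The exact two-sided permutation p was 0.10, again the smallest possible.

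The rest of the U5 reads lay on U5.9 on chromosome 22 and on the chromosome 5 copies, which took 0.387% to 2.75% over the libraries. In F1-C most of this rest was U5.9. In F1-γ replicate 1 the chromosome 5 copies took 1.58%, nearly as much as U5.9, and in F1-γ replicate 3 they were all of it. U5.9 made up 14.3%, 10.3% and 7.26% of the U5 reads in F1-C against 1.70%, 2.64% and 0% in F1-γ. Within chromosome 20 the copies did not move as one. U5.5 made up 24.6%, 19.2% and 13.3% of the U5 reads in F1-C against 6.80%, 10.1% and 6.04% in F1-γ. U5.3 held a near constant part, 16.9% to 20.3% in F1-C and 17.6% to 23.1% in F1-γ, and the groups overlapped. U5.1 held 13.3% to 17.99% in the F1-C libraries and 21% to 25.3% in the F1-γ libraries.

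**Figure D3:**
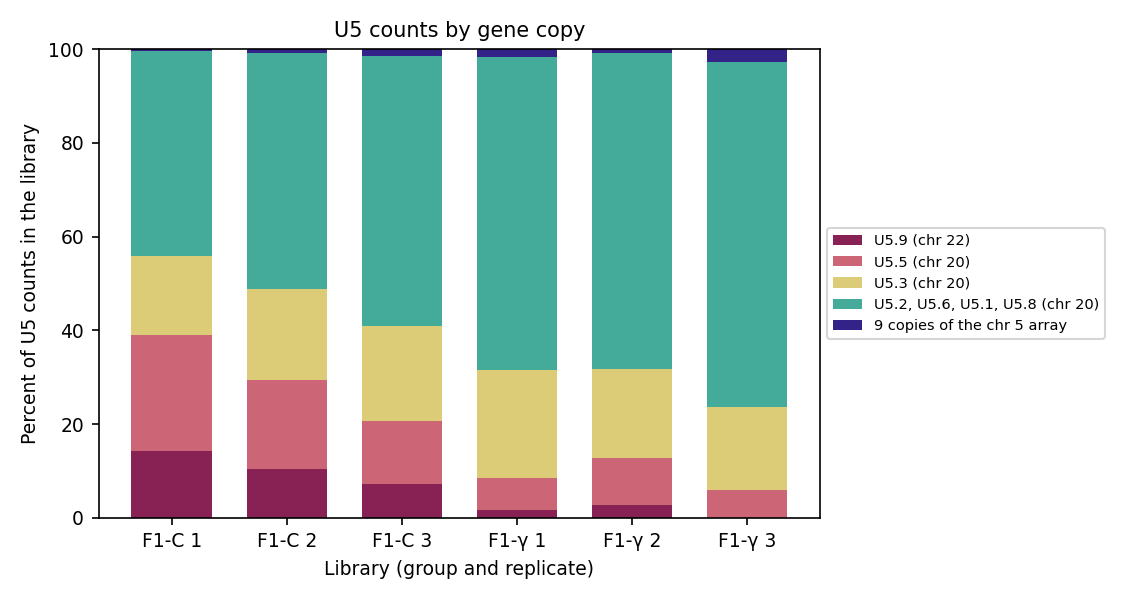
Percent of the U5 reads of each library (vertical axis) on U5.9, U5.5, U5.3, the cluster of U5.2, U5.6, U5.1 and U5.8, and the 9 counted copies of the chromosome 5 array (stacked colours); the horizontal axis gives the 6 libraries. U5.9 takes between 7.26% and 14.3% in F1-C and at most 2.64% in F1-γ, and U5.5 takes between 13.3% and 24.6% and at most 10.1%.

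The largest group of U5 rows had almost no reads assigned to it. On chromosome 5, 134 copies of 116 nt each stand on the minus strand at chr5:42520018-42685813, over 165.8 kb. Their starts follow each other at a median of 1223 nt, and 131 of the 133 spacings are within 5 nt of that value. The 2 exceptions are 1783 and 3695 nt. Only 9 of the 134 copies had a read, and 125 had none in any library. How reads that fit several copies were counted is not given, so a low count does not show that a copy is silent.

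These 9 copies had 54 reads in all, with 3, 10 and 21 in F1-C against 13, 2 and 5 in F1-γ. The groups overlapped, and the highest single count was 7, for U5.86 in F1-C replicate 3. U5.86, the best counted copy of the array, had 3, 2 and 7 reads in F1-C against 2, 1 and 1 in F1-γ. The other 8 had 1 to 9 reads over the 6 libraries. U5.95 and U5.44, U5.25 and U5.19, and U5.42 and U5.13 had identical counts within each pair in every library, so the reads of a pair cannot be told apart and may have been counted for both members. Counts of this size are too low for a fold change, and none of the 9 passed the count minimum. Of the 9, 4 were among the first 10 copies of the array by position, and the best counted one stood near the other end.

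**Figure D4:**
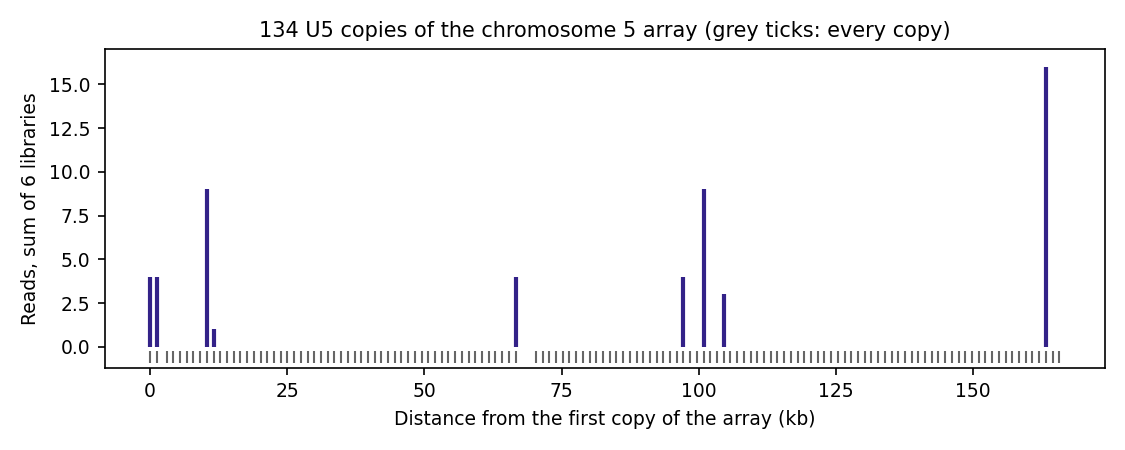
Reads summed over the 6 libraries (vertical axis) for each U5 copy of the chromosome 5 array, by distance in kb from its first copy (horizontal axis); grey ticks mark all 134 copies. Only 9 copies had reads assigned to them, 54 in all, spread over the 165.8 kb of the array.

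The other spliceosomal snRNAs had both larger and smaller count differences than U5. Mean reads in F1-C were 10.9-fold those in F1-γ for U1, which recognizes the 5′ splice site, and 6.73-fold for U4, the partner of U6 in the tri-snRNP. The ratio was 3.47 for U6, which forms part of the catalytic centre, 2.90 for U5 and 2.18 for U2, which binds the branch point. Among the minor spliceosome snRNAs it was 8.08 for U12, 2.63 for U11 and 1.22 for U6atac, and the U4atac row had 0 reads. On the TMM scale 4 of 8 U1 rows were called lower, and 5 of 10 U2 rows and the 1 U6 row tested were called higher. The U4 and U12 rows tested were not called. Rows with identical counts enter these numbers separately. The place of U5 moved when single libraries were left out. Without F1-γ replicate 1 the ratio was 5.82 for U5 and 3.88 for U6. Without any other single library it was 2.27 to 3.40 for U5. It was below that of U11 without F1-C replicate 2 or 3 and without F1-γ replicate 2 or 3. Without F1-γ replicate 3, for example, it was 2.27 for U5 and 2.52 for U11. Differences between families were not tested.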

How the data were processed

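Small RNA libraries of 6 embryo pools, 3 per group, were studied. According to the notes and methods of the submitters, reads were trimmed with Trim Galore 0.3.7 and mapped to GRCz10. The snRNA and lincRNA values used here are counts as deposited, and the miRNA and piRNA cluster tables hold estimated counts that the authors deposited with fractions, used here only as library totals and for stage markers. The deposited files do not say how reads fitting several copies were counted.

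U5 copies with more than 10 reads in at least 1 library were named with all their counts, the others by range. The copies, lists and comparisons were chosen with earlier results of these data known. Counts were tested with edgeR 4.0.16 in R 4.3.3 (quasi-likelihood, TMM, more than 100 reads in at least 3 libraries, Benjamini-Hochberg over 27 rows), after the test was tried on simulated counts. The SE was the absolute log2 fold change divided by the square root of F. DESeq2 1.42.0, other filters, normalizations, library totals and omission of each library were alternatives. Within-library ratios (0.5 reads added) and shares were compared with exact two-sided permutation tests in scipy 1.17.1. Each library is a separate pool and counted as 1 replicate. Between libraries of a group the chi-square per degree of freedom was 2.65 to 5.58, with rows of identical or low counts included. The number of snRNA reads limits the precision, since F1-γ libraries held 5756 to 9138 of them. No U5 sequence was printed, and the column of each library was matched by its label.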

Additional observations from a re-analysis of the deposited data

How the results depend on the processing

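No U5 copy of 6 was called with the TMM factors and the minimum of 100 reads (37% of all rows), and that count moved under 18 of 21 alternatives. It was 2, U5.5 and U5.9 as lower, with no minimum (17% of all rows called), table totals (66.7%) and lincRNA library sizes (66.7%). With RLE normalization (48.1%) it was also 2, but U5.2 and U5.1 as higher. A mean above 50 (48.4%) and more than 10 reads in 3 libraries (55.8%) gave 1 higher and 1 lower. The exact test of edgeR (51.9%) gave 2 higher and 1 lower. DESeq2 (59.3%), upper-quartile normalization (66.7%) and identical rows collapsed (61.9%) gave 3 higher and 1 lower. With miRNA, piRNA cluster or all-table library sizes (100%) it was 6, all lower. Leaving out single libraries gave 0 to 4 (37% to 66.7%). The adjusted p alone gave 0. On the miRNA scale the 6 lower calls were 4 to 6 without single libraries (74.1% to 100%) and 7 with more than 10 reads in 3 libraries (74.4%), both chosen after the data were seen, as were the ratios of means without single libraries. The cause of these shifts was not tested.

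The direction reversed for 4 copies. With no minimum the log2 fold change was -0.26 for U5.3, -0.012 for U5.2 and -0.083 for U5.6. With miRNA, piRNA cluster, lincRNA and all-table library sizes it was -1.85, -1.86, -1.62 and -1.80 for U5.3, -1.64, -1.66, -1.43 and -1.60 for U5.2, -1.68, -1.71, -1.48 and -1.65 for U5.6, and -1.56, -1.59, -1.36 and -1.52 for U5.1. U5.5 and U5.9 kept a negative sign under 21 of 21 alternatives each, but these are not independent checks of direction. The setting with the adjusted p alone reuses the main fold change, so its sign could not differ. Many others keep the main count minimum, which both copies passed through the F1-C libraries alone, so it favours copies high in F1-C. With no minimum the log2 fold change was -1.71 for U5.5 and -3.01 for U5.9.

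Same-numbered libraries had correlations of deviations of -0.57, 0.54 and 0.05, and unlike-numbered ones ran from -0.71 to 0.51. With 3 libraries per group this cannot decide whether the replicate numbers pair the libraries. With a replicate block 2 of 6 copies were called, U5.1 higher and U5.9 lower, against 44.4% of all rows. The block left the log2 ratio difference at 0.35 and the chromosome 20 share difference at 8.31 points (exact sign permutation p = 0.25, the smallest 3 pairs allow). Without single libraries these differences were 0.21 to 0.50 and 6.70 to 9.74, a pseudocount of 1 or none gave 0.35 and 0.36, and counting identical rows once gave 8.65 points.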
